A study of Mus musculus with 9 samples.

Results

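The enzymes that write, read and erase DNA methylation were examined at the level of their own transcripts in whole mouse retina at postnatal day 21 (P21). The set holds 9 genes, Tet1, Tet2, Tet3, Dnmt1, Dnmt3a, Dnmt3b, Uhrf1, Tdg and Mbd4, out of 55487 genes in the deposited table. They were taken by gene symbol, from a list drawn up with earlier results of these data known. Bulk RNA-seq covered 3 genotypes with 3 libraries each, and every library pooled the retinas of 2 animals labelled as strain C57 BL/6J. Tet tcKO retinas carried loxP-flanked (floxed) alleles of Tet1, Tet2 and Tet3 on both chromosomes (written Tet1 loxp/loxp, and likewise loxp/loxp for Tet2 and Tet3) together with the Chx10::Cre-GFP transgene, Tg(Chx10-EGFP/cre,-ALPP)2Clc/J, which drives Cre recombinase in retinal progenitor cells. tHet retinas carried the same transgene and were heterozygous for each of these floxed alleles (loxp/+). Cre- retinas, labelled WT, were age-matched controls bred from Cre- parents. The Cre transgene is mosaic, and Cre+ animals were in-crossed so that tHet and Tet tcKO animals held 2 copies of it. Any contrast with Cre- therefore cannot be told apart from breeding line or from the transgene itself, whereas tHet and Tet tcKO share the transgene.

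Methyl groups are placed on cytosine by DNMT3A and DNMT3B, the de novo DNA methyltransferases. They are copied onto the new strand after replication by DNMT1, which UHRF1 guides to hemimethylated CpG sites. The TET dioxygenases oxidise methylcytosine to hydroxymethylcytosine and further to formylcytosine and carboxylcytosine, and TDG, a DNA glycosylase, removes the last pair of these so that base excision repair can restore an unmodified cytosine. MBD4 is a glycosylase that binds methylated CpG and removes thymine or uracil mispaired with guanine. Neurons that have left the cell cycle, retinal neurons among them, are known for high levels of hydroxymethylcytosine.

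The floxed exons set what the gene-level values can and cannot show, because reads from the exons that remain are still counted on the gene. In the GENCODE annotation (release 21 for mouse, GRCm38), exon 4 of Tet3 (chr6:83402667-83404824, minus strand, coding) spans 2158 bp, or 12.9% of all exonic bases of the gene. Exon 4 of Tet1 (chr10:62838176-62840378, minus strand, coding) spans 2203 bp, or 14.3%. Exon 11 of Tet2 (chr3:133463679-133468190, minus strand) is the last exon of the principal transcript, holds coding sequence and the 3′ untranslated end, and spans 4512 bp, or 26.7%. Of the principal transcript alone, these exons make up 36.3% for Tet3, 15.3% for Tet1 and 49.2% for Tet2. The share of reads that an exon holds depends on the transcripts present, which were not examined. The exon numbers are those given by the study, and the transcripts it numbered them on are not given in the sources used here. The study also counted Tet2 reads spliced around the floxed exon, which needs an exon downstream that exon 11 of this transcript lacks. The position of the floxed Tet2 exon is therefore uncertain, and the Tet2 position and sizes given here may not be those of the floxed exon. The coding part of exon 4 leaves a remainder of 1 base when divided by 3 in both Tet1 and Tet3, so joining exon 3 to exon 5 changes the reading frame. The transcript joins on either side of this step are printed below as sense-strand sequence, with the exon upstream in lower case and the first 30 bases of the exon downstream in capitals. They are shown because recombination replaces the first join of Tet3 and Tet1 by the second. The Tet2 join is that of exon 11 of the principal transcript, which may not be the floxed exon.
Tet3, exon 3 to exon 4, intact: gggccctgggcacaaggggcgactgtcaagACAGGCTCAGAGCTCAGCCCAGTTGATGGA
Tet3, exon 3 to exon 5, exon 4 removed: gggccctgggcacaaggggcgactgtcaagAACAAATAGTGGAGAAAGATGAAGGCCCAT
Tet1, exon 3 to exon 4, intact: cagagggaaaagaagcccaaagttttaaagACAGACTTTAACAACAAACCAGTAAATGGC
Tet1, exon 3 to exon 5, exon 4 removed: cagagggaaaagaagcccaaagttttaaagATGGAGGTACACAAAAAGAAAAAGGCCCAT
Tet2, exon 10 to exon 11, intact: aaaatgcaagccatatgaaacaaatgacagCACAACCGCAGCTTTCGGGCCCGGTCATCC
Reads over these joins were not analysed here, and all values below are reads over whole genes.

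Reads counted on genes numbered 9627927 to 21108256 per library. Values are CPM as deposited, that is, reads on a gene scaled to a fixed total per library, in which a single read was worth 0.0474 to 0.104 CPM and 3 reads, taken as the detection floor, 0.142 to 0.312 CPM. Such floors cover counting error only. Replicate 3 of Tet tcKO stood apart from the other libraries, because 28.7% of its reads fell on the ribosomal RNA gene CT010467.1. The share was 3.72% in replicate 3 of tHet and at most 0.226% in the other libraries. The excess lowers the CPM of every other gene in that library, and in deposited CPM replicate 3 was the lowest of the Tet tcKO libraries for all 9 genes. Values with library totals recomputed without CT010467.1 are therefore given beside the deposited ones where they differ in what they show. This rescaling moved the median log2 fold change (log2FC) of all tested genes to 0.14 in Tet tcKO versus Cre- and to 0.07 in Tet tcKO versus tHet. Markers of rods, the main cell type of mouse retina, were present in all libraries, with a summed level of 25949 to 31829 CPM over 6 genes in Cre- libraries, 22237 to 27962 CPM in those of tHet and 1304 to 7879 CPM in those of Tet tcKO. In bulk tissue, fewer cells of a type and less RNA per cell cannot be told apart.

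Dnmt3a was the most abundant of these transcripts per length in every genotype, and Uhrf1 the least. Levels between genes were compared as CPM per kilobase of exon. In Cre- retina the mean level was 32.5 CPM per kilobase for Dnmt3a, 14.1 for Tet3, 9.88 for Dnmt1, 9.25 for Tet2, 8.79 for Tdg, 3.53 for Tet1, 2.82 for Mbd4, 0.967 for Dnmt3b and 0.108 for Uhrf1. Dnmt3a and Tet3 stood clear of each other and of Dnmt1, with no library of one within the range of the next. The ranges of Dnmt1, Tet2 and Tdg overlapped along the order, as did those of Tet1 and Mbd4. In Tet tcKO the order changed at a single place: Tet3, at 7.17 ± 1.69 CPM per kilobase (SD, n = 3), lay after Dnmt1, Tet2 and Tdg, and its range overlapped that of Tdg. The ratio of Dnmt3a to Tet3 per length was 1.93 to 2.71 in Cre- libraries, 2.85 to 4.59 in tHet and 5.36 to 8.53 in Tet tcKO. The 3 ranges of this ratio, which no scaling of the libraries can alter, did not overlap. It was chosen after the values were seen.

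**Figure D1:**
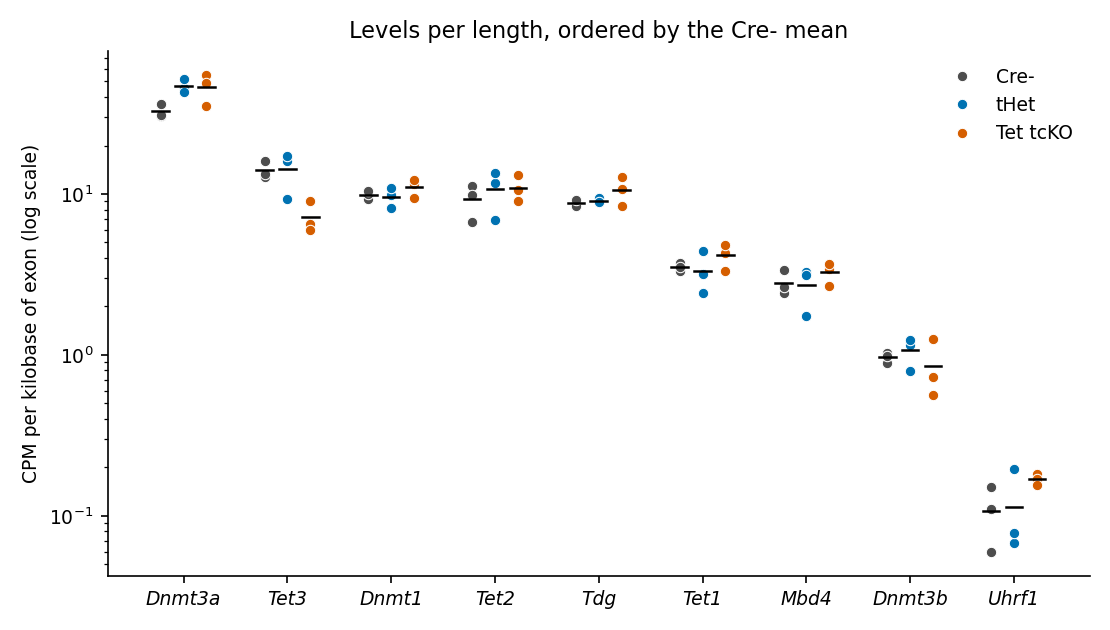
Level of each gene per kilobase of exon (vertical axis, CPM per kilobase, log scale), ordered from left to right by the Cre- mean. Each point is a library, coloured by genotype, and the bars are means over 3 libraries. Tet3 in Tet tcKO lies below its own Cre- and tHet points, and Dnmt3a lies above all other genes in each genotype.

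None of the 9 genes passed the call used here, an absolute log2FC of at least 1 with an adjusted p under 0.01 in limma. Of all tested genes, 3.60% were called in Tet tcKO versus Cre-, 3.00% in Tet tcKO versus tHet and 0.0422% in tHet versus Cre-. The edgeR quasi-likelihood test and DESeq2 also called 0 of the 9 in each comparison. An unadjusted limma p under 0.05 was reached by 1 of the 9 in each comparison, against 16.1%, 17.5% and 4.55% of all tested genes. That gene was Tet3 in both comparisons with Tet tcKO and Dnmt3a in tHet versus Cre-. The median log2FC of the 9 genes was 0.22 in Tet tcKO versus Cre-, 0.20 in Tet tcKO versus tHet and 0.02 in tHet versus Cre- (0.21, 0.13 and 0.0066 without Uhrf1, which was tested only through its Tet tcKO libraries), beside medians of 0.00124, −0.06 and 0.06 over all tested genes. With 3 libraries per genotype an exact two-sided permutation test of a single gene cannot give a p below 0.1.

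**Figure D2:**
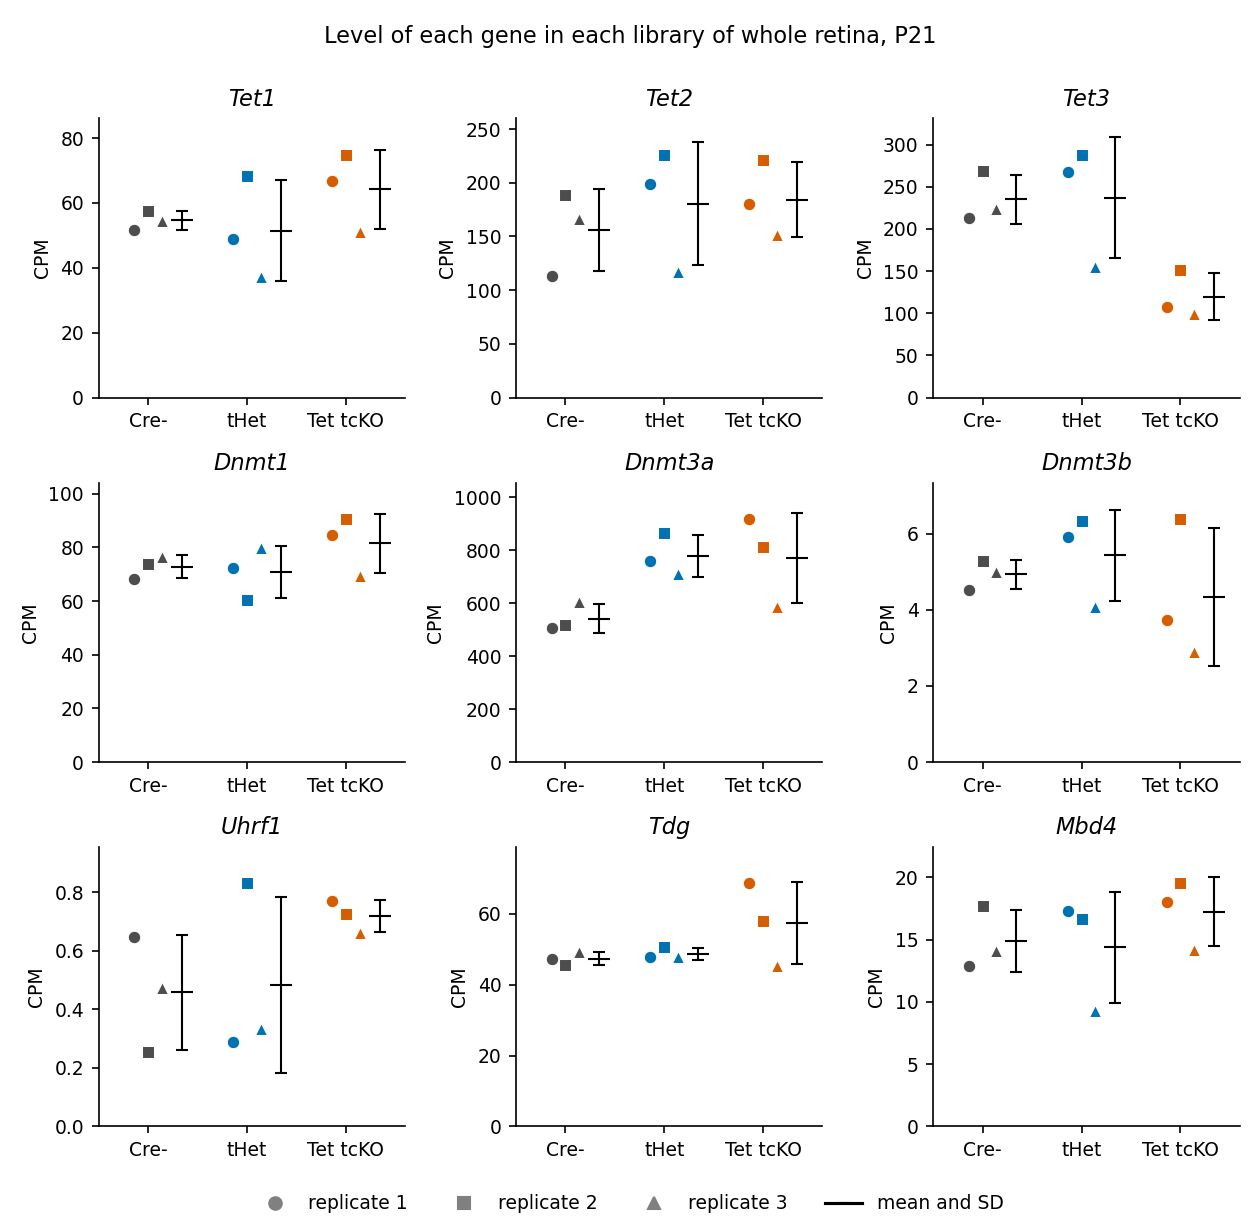
Level of each of the 9 genes (vertical axis, CPM, starting at 0) in every library, by genotype. Symbols mark the replicate number, and the bars to the right of each group show the mean and SD over 3 libraries. Tet3 is the gene whose Tet tcKO libraries all lie below every other library, and Dnmt3a has every tHet library above every Cre- library.

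Tet3, the most abundant of the TET genes in Cre- retina, was the member with the lowest level in Tet tcKO relative to both controls. Tet3 (ENSMUSG00000034832.15, chr6:83362373-83459084, minus strand) stood at 213, 268 and 223 CPM in Cre- replicates 1, 2 and 3. It stood at 268, 288 and 155 CPM in the same replicates of tHet and at 108, 152 and 99.2 CPM in those of Tet tcKO. Every Tet tcKO library was below every library of both controls, while Cre- and tHet overlapped. Tet tcKO differed from Cre- by a log2FC of −0.99 (standard error, SE, 0.25, 95% interval −1.51 to −0.47, limma adjusted p = 0.0174), a level 49.6% lower. It was −0.96 versus tHet (limma adjusted p = 0.0239) and −0.03 in tHet versus Cre- (limma adjusted p = 0.9998). Libraries entirely below those of the control were found in 9.60% of all tested genes versus Cre- and in 9.68% versus tHet. With totals recomputed without CT010467.1 the log2FC was −0.83 (limma adjusted p = 0.0290) and −0.81 (limma adjusted p = 0.0351), and the ranges still did not overlap. Tet3 was called versus Cre- with upper-quartile scaling (log2FC −1.04, limma adjusted p = 0.0020) and without replicate 2 of Tet tcKO (−1.17, limma adjusted p = 0.0088). It was called versus tHet without replicate 3 of tHet (−1.24, limma adjusted p = 0.0010). With edgeR and DESeq2 it missed the call on the fold threshold alone. Versus Cre- edgeR gave −0.97 (adjusted p = 0.0047) and DESeq2 −0.98 (adjusted p = 9.5e-06). Versus tHet edgeR gave −0.90 (adjusted p = 0.0081) and DESeq2 −0.91 (adjusted p = 6.0e-05). The limma adjusted p of Tet3 rose above 0.05 versus Cre- without Cre- replicate 2 (limma adjusted p = 0.0722), Cre- replicate 3 (0.0587), Tet tcKO replicate 1 (0.0960) or Tet tcKO replicate 3 (0.0844), and with no filter on low values (0.0622). Versus tHet it did so without tHet replicate 1 (limma adjusted p = 0.151), tHet replicate 2 (0.123), Tet tcKO replicate 1 (0.133) or Tet tcKO replicate 3 (0.0983), and with no filter (0.0796). The summed level of the 6 rod markers moved with Tet3 across Cre- and Tet tcKO. That of 4 Muller glia markers was also lower in Tet tcKO (521 to 846 CPM) than in Cre- (1175 to 1586 CPM). Of these 4 markers, 2 were called lower. The part of either sum in the Tet3 difference was not tested. The part of the removed exon in that difference was not tested either.

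Tet1 and Tet2 did not follow Tet3. Tet2 (ENSMUSG00000040943.12, chr3:133463679-133545139, minus strand) stood at 113, 188 and 167 CPM in Cre- libraries, 199, 226 and 117 CPM in those of tHet and 180, 221 and 152 CPM in those of Tet tcKO. Tet1 (ENSMUSG00000047146.17, chr10:62804570-62908996, minus strand), the least abundant of the TET genes, stood at 51.7, 57.6 and 54.5 CPM in Cre- libraries, 49.0, 68.2 and 37.3 CPM in those of tHet and 66.8, 74.9 and 51.0 CPM in those of Tet tcKO. The libraries of all genotypes overlapped for both genes, and replicate 3 of tHet was low for all TET genes. The 95% interval of the log2FC in Tet tcKO versus Cre- ran from −0.29 to 0.80 for Tet2 and from −0.27 to 0.71 for Tet1, so a fall of the size seen for Tet3 lay outside both intervals. With totals recomputed without CT010467.1 every Tet1 library of Tet tcKO (66.8 to 75 CPM) lay above every Cre- library (51.7 to 57.7 CPM), with a log2FC of 0.38 and a limma adjusted p of 0.235.

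The make-up of the TET reads within a library does not depend on how libraries are scaled, and it separated Tet tcKO from both controls. Tet3 made up 56.4, 52.2 and 50.3% of the reads on Tet1, Tet2 and Tet3 in Cre-, and 51.9, 49.5 and 50.2% in tHet. It made up 30.4, 33.9 and 32.9% in Tet tcKO. These shares rest on 5016 to 8078 reads per library. The mean share over 3 libraries was 52.9 ± 3.14% (SD) for Cre-, 50.5 ± 1.27% for tHet and 32.4 ± 1.78% for Tet tcKO. Tet2 rose in share from 29.9 to 37.5% in Cre- and 37.8 to 38.8% in tHet to 49.4 to 50.7% in Tet tcKO, and Tet1 from 11.2 to 13.7% and 9.50 to 12.0% to 16.7 to 18.8%. Counted per kilobase of exon, Tet3 still held 30.2 to 33.6% in Tet tcKO and 49.97 to 56.0% in Cre-. The Tet2 to Tet1 ratio overlapped between the genotypes, at 2.19 to 3.26 in Cre-, 3.14 to 4.06 in tHet and 2.69 to 2.98 in Tet tcKO. The summed level of the 3 genes was 378 to 514 CPM in Cre- libraries, 310 to 583 CPM in those of tHet and 302 to 448 CPM in those of Tet tcKO, and these ranges overlapped.

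**Figure D3:**
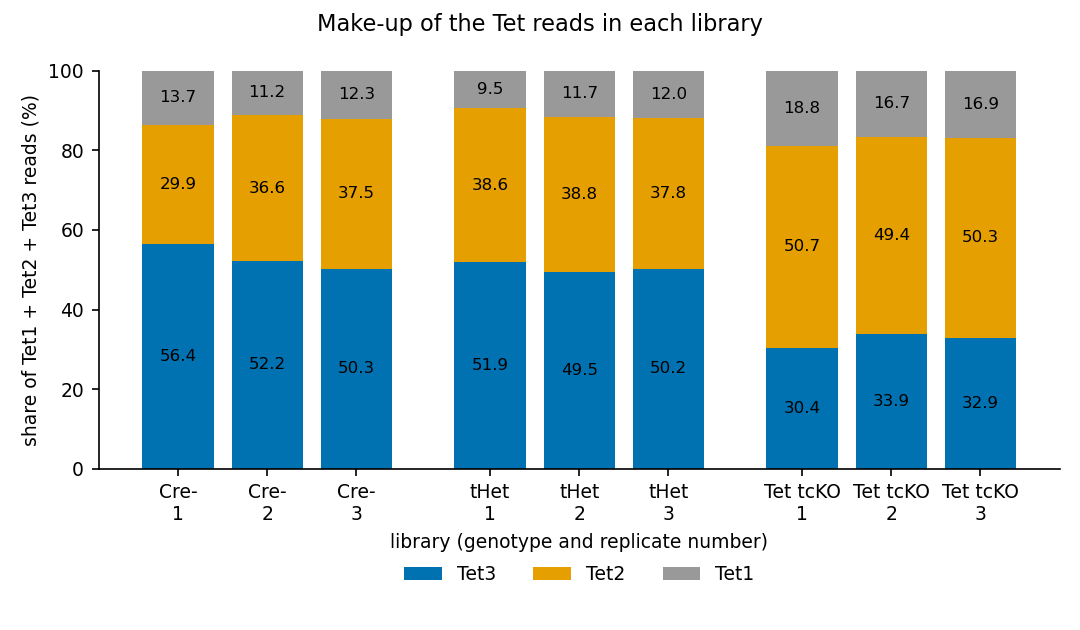
Share of the reads on Tet1, Tet2 and Tet3 that fell on each of them (vertical axis, percent) in every library, named by genotype and replicate number. The Tet3 part of the bar is 30.4 to 33.9% in the Tet tcKO libraries and 49.5 to 56.4% in the others, and Tet2 is the largest part in Tet tcKO.

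Among the methyltransferases Dnmt3a differed most from Cre-, in both genotypes that carry the transgene. Dnmt3a (ENSMUSG00000020661.15, chr12:3806007-3914443, plus strand) stood at 505, 517 and 603 CPM in Cre- libraries, 759, 865 and 711 CPM in those of tHet and 918, 811 and 586 CPM in those of Tet tcKO. Every tHet library was above every Cre- library, a pattern found in 5.78% of all tested genes. In Tet tcKO, replicates 1 and 2 were above all Cre- libraries and replicate 3 was within their range. The log2FC was 0.52 in tHet versus Cre- (95% interval 0.0052 to 1.04, unadjusted p = 0.0480, limma adjusted p = 0.9998), and no alternative brought its adjusted p under 0.318. It was 0.49 in Tet tcKO versus Cre- (95% interval −0.03 to 1.01, limma adjusted p = 0.352). Between Tet tcKO and tHet the log2FC was −0.03 (95% interval −0.55 to 0.48, limma adjusted p = 0.968), and it was 0.11 with totals recomputed without CT010467.1.

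The Dnmt3a level in replicate 3 of Tet tcKO was 822 CPM once CT010467.1 was left out of the totals, and all Tet tcKO libraries (812 to 919 CPM) then lay above all Cre- libraries (505 to 604 CPM). The log2FC versus Cre- was then 0.65 (95% interval 0.32 to 0.98, limma adjusted p = 0.0171). DESeq2 gave 0.49 with an adjusted p of 0.0162, and edgeR 0.50 with an adjusted p of 0.0722. An adjusted p under 0.05 was held by 10.2% of all tested genes with these totals, and libraries entirely above Cre- by 23.4%. The ratio of Dnmt3a to Dnmt1 within a library was 7.0 to 7.89 in Cre-, 8.91 to 14.3 in tHet and 8.46 to 10.9 in Tet tcKO, so that Cre- lay below both other genotypes whatever the scaling. This ratio was chosen after the values were seen. The summed level of 3 ciliary body markers moved in the same way, from 6.43 to 13.5 CPM in Cre- libraries to 59.6 to 129 CPM in those of tHet and 59.7 to 118 CPM in those of Tet tcKO, with 1 of the 3 called in tHet versus Cre-. Its part in the Dnmt3a difference was not tested. An antisense gene, Dnmt3aos, shares 133 bp of exon with Dnmt3a and was at no more than 3.32 CPM in any library, and the pseudogene Dnmt3a-ps1 at no more than 0.360 CPM.

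Dnmt1 and Dnmt3b differed less between genotypes. Dnmt1 (ENSMUSG00000004099.16, chr9:20907209-20959888, minus strand) stood at 68.3, 73.8 and 76.5 CPM in Cre- libraries, 72.2, 60.3 and 79.8 CPM in those of tHet and 84.6, 90.6 and 69.2 CPM in those of Tet tcKO, with overlap between all genotypes. Its log2FC in Tet tcKO was 0.15 against Cre- (limma adjusted p = 0.866) and 0.20 against tHet (limma adjusted p = 0.700). With totals recomputed without CT010467.1 the Tet tcKO libraries (84.7 to 97.2 CPM) lay above all others, with log2FC of 0.31 and 0.35 and limma adjusted p of 0.202 and 0.153. Dnmt3b (ENSMUSG00000027478.15, chr2:153649450-153687730, plus strand) was low, with 48 to 97 reads per library. It stood at 4.53, 5.28 and 5.0 CPM in Cre- libraries, 5.90, 6.34 and 4.07 CPM in those of tHet and 3.74, 6.39 and 2.89 CPM in those of Tet tcKO. The Tet tcKO libraries spanned more than the range of Cre- in both directions, and the log2FC of −0.23 had a 95% interval of −0.90 to 0.44 (limma adjusted p = 0.873).

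Uhrf1, the reader that recruits DNMT1 at replication, was near the detection limit. Uhrf1 (ENSMUSG00000001228.14, chr17:56303321-56323486, plus strand) had 4 to 13 reads per library and passed the filter on low values with 5 libraries, 3 of them Tet tcKO, so that without Tet tcKO it would not have been tested. It stood at 0.648, 0.254 and 0.473 CPM in Cre- libraries, 0.288, 0.831 and 0.332 CPM in those of tHet and 0.772, 0.725 and 0.662 CPM in those of Tet tcKO. The Tet tcKO libraries lay just above Cre- and within the range of tHet, and the log2FC of 0.37 versus Cre- had a 95% interval of −0.30 to 1.04 (limma adjusted p = 0.719). Of 10 markers of dividing cells, 5 could be tested. Of these, 2 were called higher in Tet tcKO versus Cre-, where 3.60% of all tested genes were called, and 0 were called in Tet tcKO versus tHet. The summed level of all 10 overlapped, at 38.0 to 42.0 CPM in Cre- libraries, 28.9 to 38.6 CPM in those of tHet and 32.9 to 49.1 CPM in those of Tet tcKO, and the part of dividing cells in the Dnmt1 and Uhrf1 values was not tested.

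The glycosylases were measured well above the detection limit. Tdg (ENSMUSG00000034674.18, chr10:82629828-82650799, plus strand) was the steadiest of the 9 genes in the controls, at 47.2, 45.4 and 49.1 CPM in Cre- and 47.7, 50.7 and 47.8 CPM in tHet. It stood at 68.5, 57.9 and 45.3 CPM in Tet tcKO, where replicates 1 and 2 lay above every control library and replicate 3 below them. The log2FC was 0.26 versus Cre- (limma adjusted p = 0.689) and 0.21 versus tHet (limma adjusted p = 0.689). With totals recomputed without CT010467.1, replicate 3 was at 63.6 CPM and all Tet tcKO libraries lay above all controls, with log2FC of 0.42 (limma adjusted p = 0.0512) and 0.35 (limma adjusted p = 0.0989). Glt8d2 shares 367 bp of exon with Tdg on the opposite strand and was at no more than 2.80 CPM. Mbd4 (ENSMUSG00000030322.12, chr6:115840697-115853371, minus strand) stood at 12.9, 17.7 and 14 CPM in Cre- libraries, 17.3, 16.6 and 9.24 CPM in those of tHet and 18.0, 19.5 and 14.1 CPM in those of Tet tcKO. These ranges overlapped, and the log2FC of 0.20 versus Cre- had a 95% interval of −0.36 to 0.77 (limma adjusted p = 0.862). With the recomputed totals its Tet tcKO libraries (18.0 to 19.9 CPM) lay just above all others.

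Leaving CT010467.1 out of the totals thus changed how many genes had Tet tcKO libraries clear of Cre-. Uhrf1, which was tested only through its Tet tcKO libraries, is left out of these counts. In deposited CPM 0 of the other 8 genes had all Tet tcKO libraries above Cre- and 1 (Tet3) had all below, whereas 10.0% and 9.60% of all tested genes did. With the recomputed totals these were 5 and 1 of the 8 genes, against 23.4% and 8.12% of all tested genes. Against tHet they were 0 and 1 in deposited CPM (7.35% and 9.68% of all tested genes) and 3 and 1 with the recomputed totals (18.9% and 8.70%). Tet3 was the gene below both controls under either scaling.

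**Figure D4:**
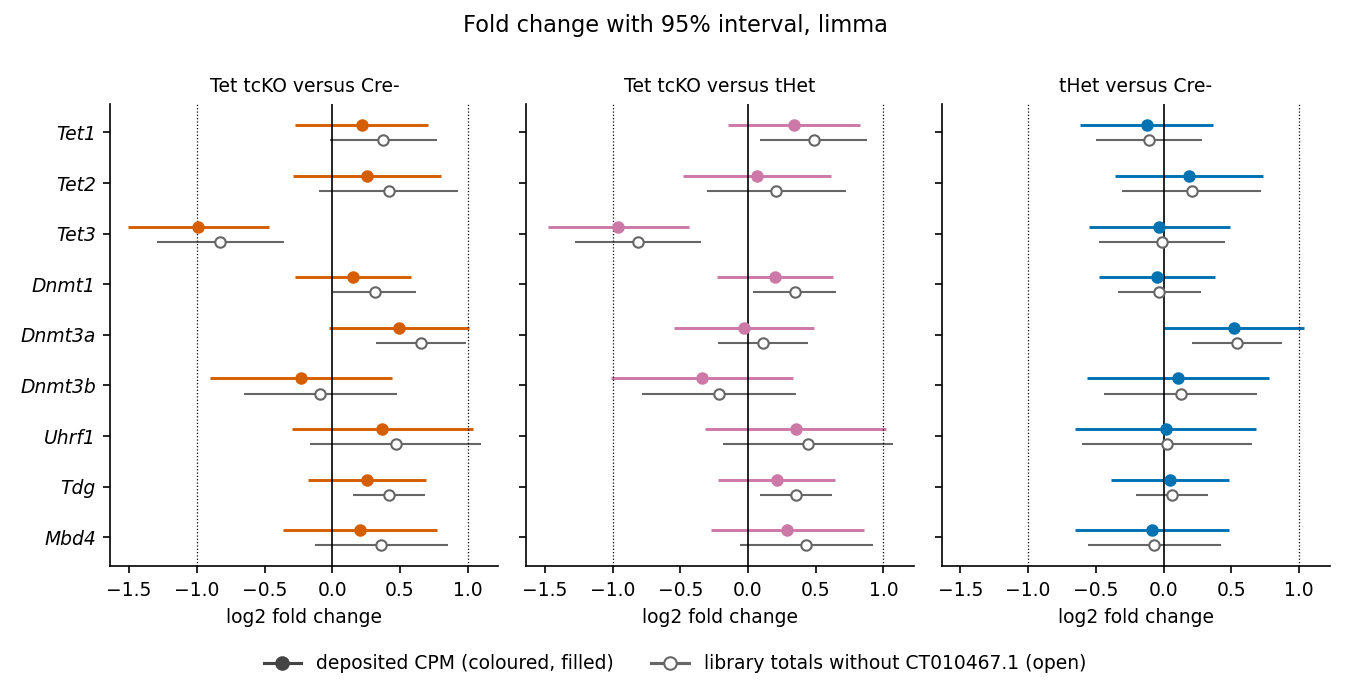
Log2 fold change (horizontal axis) of each gene in the 3 comparisons of genotypes, with 95% intervals from limma. Filled, coloured points use deposited CPM and open grey points use library totals without CT010467.1, and the dotted lines mark a log2 fold change of 1 in either direction. The intervals of Tet3 lie below 0 in both comparisons with Tet tcKO. Those of Dnmt3a, Tdg and Dnmt1 in Tet tcKO versus Cre- lie above 0 only for the open points, as do those of Tet1, Tdg and Dnmt1 in Tet tcKO versus tHet.

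The transcripts whose levels ran most like Tet3 over the 9 libraries on the log2 scale were Bbs5 (Pearson r = 0.996), Fam53b (0.993), Mir124-2hg (0.992), Klhl18 (0.989) and Fryl (0.989). Bbs5, a component of the BBSome that carries cargo in the cilium, stood at 33.1, 47.3 and 34 CPM in Cre- libraries, 44.4, 47.4 and 21.6 CPM in those of tHet and 14.1, 23.3 and 13.8 CPM in those of Tet tcKO. Mir124-2hg, a host gene of the neuronal microRNA miR-124, stood at 1014, 1289 and 1125 CPM in Cre- and 510, 713 and 466 CPM in Tet tcKO. Like Tet3, both were low in replicate 3 of tHet and highest in replicate 2 of each genotype. The libraries share genotype, scaling and depth, so these r values describe the 9 libraries.

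The rest of the methylation pathway was followed in 6 lists of 61 genes, of which 56 could be tested. In Tet tcKO versus Cre- 1 gene was called higher and 1 lower (3.57% of those tested, beside 3.60% of all genes). In Tet tcKO versus tHet 1 was called lower (1.79%, beside 3.00%), and in tHet versus Cre- none was called by limma, edgeR or DESeq2, with 1 of the 56 at an unadjusted limma p under 0.05. An adjusted p under 0.05 at any fold was held by 6 genes versus Cre- (10.7%, beside 6.50% of all genes) and by 5 versus tHet (8.93%, beside 5.95%).

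Of 13 base excision repair genes tested, 1 rose and 12 did not pass in Tet tcKO versus Cre-. Smug1, a glycosylase that removes uracil and hydroxymethyluracil from DNA, stood at 28.3, 57.8 and 37.1 CPM in Cre- libraries, 55.3, 46.3 and 35.9 CPM in those of tHet and 128, 98 and 75.3 CPM in those of Tet tcKO. Its Tet tcKO libraries were above all others. The log2FC was 1.31 versus Cre- (SE 0.27, limma adjusted p = 0.0032), and 1.11 versus tHet (limma adjusted p = 0.0132), which missed the call. Versus tHet it was called in 10 of 21 alternatives, among them edgeR (adjusted p = 0.0046), DESeq2 (adjusted p = 1.2e-05), TMM scaling (limma adjusted p = 0.0036), totals recomputed without CT010467.1 (limma adjusted p = 0.0060) and a fit with the replicate number as a block (limma adjusted p = 7.5e-04). The call versus Cre- was lost without Cre- replicate 1 (limma adjusted p = 0.0142), Cre- replicate 3 (0.0195), Tet tcKO replicate 1 (0.0398) or Tet tcKO replicate 3 (0.0126), and without a filter on low values (0.0177). Lig1, a DNA ligase that seals nicks in replication and repair, stood at 27.8, 32.8 and 36.0 CPM in Cre- libraries, 39.6, 25.7 and 38.8 CPM in those of tHet and 58.5, 60.1 and 57.6 CPM in those of Tet tcKO. It had log2FC of 0.86 (limma adjusted p = 0.0192) and 0.78 (limma adjusted p = 0.0409) versus Cre- and tHet, and was not called on deposited CPM. With totals recomputed without CT010467.1 it was called versus Cre- (log2FC 1.03, limma adjusted p = 0.0060).

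Of 3 cytidine deaminases tested, Apobec2 fell versus both controls and the other two did not pass. Apobec2, a deaminase family member best known from muscle, stood at 5.24, 4.14 and 3.58 CPM in Cre- libraries, 5.33, 7.17 and 5.54 CPM in those of tHet and 0.178, 2.24 and 0.843 CPM in those of Tet tcKO. Replicate 1 of Tet tcKO was at the floor of 3 reads. The fitted log2FC was −1.81 versus Cre- (SE 0.40, limma adjusted p = 0.0068) and −2.25 versus tHet (limma adjusted p = 0.0012). Versus Cre- the call was lost in 10 of 21 alternatives. These were edgeR (adjusted p = 0.0346), TMM scaling (limma adjusted p = 0.0132), upper-quartile scaling (0.0102), no filter on low values (0.0356), totals recomputed without CT010467.1 (0.0231, and 0.0144 with that block added), and fits without Cre- replicate 1 (0.0110), Cre- replicate 3 (0.0177), Tet tcKO replicate 1 (0.0692) or Tet tcKO replicate 3 (0.0597). Versus tHet it was lost with edgeR (adjusted p = 0.0165), with no filter on low values (limma adjusted p = 0.0109) and without Tet tcKO replicate 1 (limma adjusted p = 0.0148) or replicate 3 (0.0285). Apobec3, an antiviral deaminase, stood at 0.942 to 1.78 CPM in Cre- and 2.35 to 3.74 CPM in Tet tcKO (log2FC 0.95, limma adjusted p = 0.0988).

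None of the 10 methyl-CpG readers was called in any comparison, by limma. Their median log2FC was −0.20 in Tet tcKO versus Cre- and −0.21 versus tHet. Zbtb38, a zinc finger protein that binds methylated CpG, stood at 168, 169 and 176 CPM in Cre- libraries, 125, 128 and 112 CPM in those of tHet and 103, 125 and 79.3 CPM in those of Tet tcKO. Every Tet tcKO library lay below every Cre- library, a pattern found in 9.60% of all tested genes. The log2FC values versus Cre- were −0.76 in Tet tcKO (limma adjusted p = 0.0315) and −0.49 in tHet (limma adjusted p = 0.9998). With totals recomputed without CT010467.1 these were −0.60 (limma adjusted p = 0.0078) and −0.47 (limma adjusted p = 0.452). With DESeq2, Zbtb38 was the 1 gene of the 56 with an adjusted p under 0.05 in tHet versus Cre-. The related Zbtb4 had a mean level (± SD over 3 libraries) of 201 ± 6.76 CPM for Cre-, 165 ± 13.9 CPM for tHet and 137 ± 29.2 CPM for Tet tcKO. Its Tet tcKO log2FC against Cre- was −0.57 (limma adjusted p = 0.142).

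With limma on deposited CPM none of the methyltransferase partners, TET partners and cofactor genes or methionine cycle genes was called. Among 8 methyltransferase partners tested, Zfp57, which keeps methylation at imprinted loci, stood at 5.42, 7.89 and 5.87 CPM in Cre- libraries, 7.34, 8.52 and 7.30 CPM in those of tHet and 12.5, 15.7 and 12.4 CPM in those of Tet tcKO (log2FC 1.04 versus Cre-, limma adjusted p = 0.0199). It was called versus Cre- in 6 of 21 alternatives, among them edgeR, DESeq2, TMM scaling and totals recomputed without CT010467.1 (log2FC 1.19, limma adjusted p = 0.0037). Cdca7, an activator of the remodeller HELLS, was at 0.318 to 0.810 CPM in Cre- and 1.25 to 1.51 CPM in Tet tcKO (log2FC 0.92, limma adjusted p = 0.103). Among 12 TET partners and cofactor genes, Gadd45a, a stress-induced gene linked to demethylation, was at 17.4 to 25.7 CPM in Cre- and 10.7 to 13.4 CPM in Tet tcKO (log2FC −0.80, limma adjusted p = 0.0523). Idh2, a mitochondrial source of the alpha-ketoglutarate that TET enzymes consume, was at 13.6 to 19.2 CPM in Cre- and 19.3 to 28.7 CPM in Tet tcKO (log2FC 0.53, limma adjusted p = 0.263). Among 10 methionine cycle genes tested, Ahcyl2, a relative of S-adenosylhomocysteine hydrolase, stood at 60.2 to 61.8 CPM in Cre- libraries, 49.7 to 63.7 CPM in those of tHet and 78.5 to 125 CPM in those of Tet tcKO. Its log2FC was 0.79 versus Cre- (limma adjusted p = 0.0314) and 0.89 versus tHet (limma adjusted p = 0.0167). With totals recomputed without CT010467.1 Ahcyl2 was called versus tHet (log2FC 1.03, limma adjusted p = 4.4e-04), and without Tet tcKO replicate 3 it was called versus both controls. Mat2a, which makes the methyl donor S-adenosylmethionine, overlapped between genotypes, with a log2FC of 0.47 versus Cre- (limma adjusted p = 0.458).

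**Figure D5:**
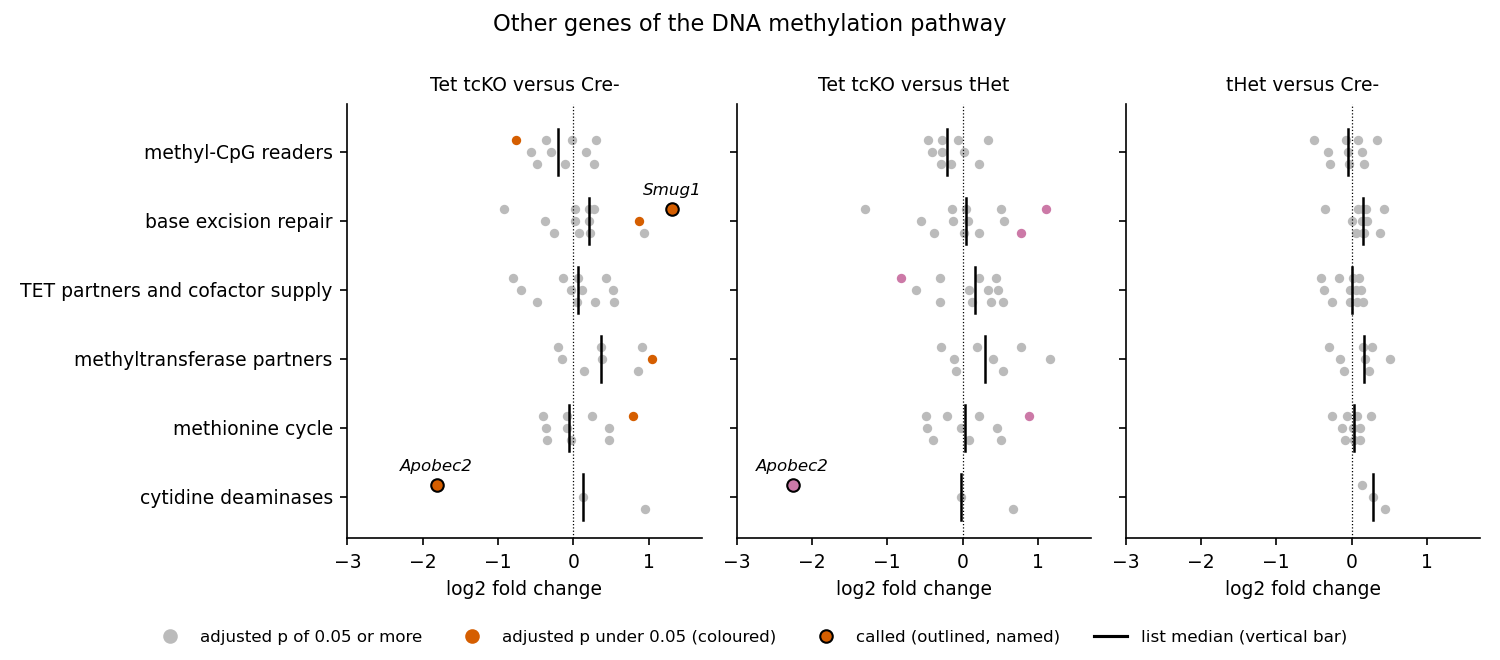
Log2 fold change (horizontal axis) of the 56 tested genes of the 6 pathway lists in the 3 comparisons. Each point is a gene, coloured where the limma adjusted p is under 0.05 and outlined and named where the gene was called, and the vertical bars are list medians. Smug1 and Apobec2 are the called genes, and no point is coloured in tHet versus Cre-.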

How the data were processed

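The authors depleted ribosomal RNA, prepared stranded libraries and, per the submitters' processing notes, mapped trimmed reads to mm10 with STAR 2.7.0f and counted them per gene with HTSeq 0.11.2. The annotation release and the strand setting of the counting are not given in the sources used here. The authors deposited CPM for each library, and also columns of their own edgeR results (log2 fold changes, p-values, false discovery rates), which were not used. Every positive CPM was a whole number of reads within 0.01 reads (100%), so reads were recovered for edgeR 4.0.16 and DESeq2 1.42.0.

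The main test was limma 3.58.1 (R 4.3.3; trended eBayes) on log2(CPM + 0.5) over the 21330 genes that reached 0.5 CPM in 3 or more libraries. All 9 libraries entered a single fit, p-values were two-sided, and Benjamini-Hochberg adjustment ran over all these genes. Fold changes are on that scale, and a call needed a log2 fold change of 1 or more in either direction with an adjusted p under 0.01. On simulated data for Tet tcKO versus Cre-, limma called 198 of 200 genes changed by 2 on the log2 scale, with 4 false calls among 20705 genes. The simulation gave all genes the same dispersion and held no smaller changes. It therefore cannot show how often changes of the size seen in the 9 members would be called.

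The members, the gene lists and the rule for naming genes were chosen with earlier results of these data known. The rule took the 9 members, list genes called in any comparison, the 2 genes per list with the smallest p in Tet tcKO versus Cre-, and the 5 genes most correlated with Tet3. CT010467.1 was chosen after its values were seen. Libraries with the same replicate number came from different animals. Alternatives were pseudocounts of 0.1 and 1, other filters, scalings, tools and thresholds, a replicate block, only the 6 libraries compared, and leaving out each library.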

Additional observations from a re-analysis of the deposited data

How the results depend on the processing

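Across 23 alternatives the counts of members called stayed at 0, except that 1 (Tet3) was called in Tet tcKO versus Cre- with upper-quartile scaling, and that leaving out 1 library gave 0 to 1 versus Cre- and 0 to 1 versus tHet. The Tet3 log2FC versus Cre- was −1.04 with upper-quartile scaling and ran from −1.17 (without Tet tcKO replicate 2, called) to −0.87 with 1 library left out. Versus tHet it ran from −1.24 (without tHet replicate 3, called) to −0.79. The Tet3 share of TET reads was 20.5 percentage points lower in Tet tcKO than in Cre- (−20.5), and −21.9 to −18.8 with 1 library left out.

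The count of other pathway genes called in Tet tcKO versus Cre- was 2, and it was 0 without a filter on low values, 1 with upper-quartile scaling, 3 with totals without CT010467.1, with DESeq2, with the replicate block and at an adjusted p under 0.05, and 0 to 2 with 1 library left out. With edgeR and with TMM scaling it was 2, with Zfp57 called in place of Apobec2. In Tet tcKO versus tHet it was 1, and it was 0 without a filter, 2 with upper-quartile scaling, with TMM scaling, with only the 6 libraries compared and at an adjusted p under 0.05, 3 with totals without CT010467.1 and with DESeq2, and 0 to 2 with 1 library left out. With edgeR it was 1, Smug1 in place of Apobec2.

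The replicate number was used as a block in a further fit. Libraries with the same number had a mean correlation of 0.111 over 9 pairs (−0.35 to 0.56) against −0.05 for other pairs, and 5 of 9 libraries correlated best with their own number. The main test did not take the numbers as pairs. With the block, limma called 1127 genes in Tet tcKO versus Cre-, 1125 in Tet tcKO versus tHet and 40 in tHet versus Cre-. Without it these were 768, 640 and 9. The limma adjusted p of Tet3 with the block was 0.0014 versus Cre- and 0.0022 versus tHet. With this block 0 members were called in any comparison, and 3 other pathway genes in Tet tcKO versus tHet, as with the block and totals without CT010467.1 together, a setting chosen after seeing the data.

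The sign changed for 10 of 27 small member fold changes, none of them called, and the cause was not tested. Dnmt3a in Tet tcKO versus tHet was 0.0369 with TMM scaling, 0.0412 with edgeR and 0.0374 with DESeq2, 0.11 with totals without CT010467.1, alone or with the block, and −0.17 to 0.15 with 1 library left out. Versus Cre-, Uhrf1 in tHet was −0.04 with upper-quartile scaling, −0.0304 with TMM, −0.10 with edgeR, −0.11 with DESeq2 and −0.22 to 0.16 with 1 library left out. Tdg in tHet was −0.0305 with upper-quartile scaling, −0.0135 with TMM, −0.0134 with edgeR and −0.0167 with DESeq2. With 1 library left out, tHet versus Cre- ran from −0.35 to 0.0831 for Tet1, −0.026 to 0.47 for Tet2, −0.20 to 0.25 for Tet3, −0.14 to 0.06 for Dnmt1, −0.0039 to 0.29 for Dnmt3b and −0.24 to 0.19 for Mbd4, and Tet2 in Tet tcKO versus tHet from −0.22 to 0.26. Over all genes, calls in Tet tcKO versus Cre- were 434 higher and 334 lower, and 613 and 222 with totals without CT010467.1. In Tet tcKO versus tHet they were 297 and 343, 361 and 307 with TMM scaling, and 427 and 215 with totals without CT010467.1. Limma called 768, 640 and 9 genes in Tet tcKO versus Cre-, Tet tcKO versus tHet and tHet versus Cre-, edgeR 744, 608 and 1, and DESeq2 1145, 1046 and 40.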

Other observations

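With CT010467.1 left out of the totals, 13 of the 56 other pathway genes tested had a limma adjusted p under 0.05 in Tet tcKO versus Cre-. Of these, 6 had it with deposited CPM and 7 were gained. Among the 7 was Ung, which passed the filter on low values through tHet replicate 3 and Tet tcKO replicates 2 and 3. Over all tested genes the number with a limma adjusted p under 0.05 went from 1387 (6.50%) to 2198 (10.2%). Calls among these pathway genes in Tet tcKO versus tHet went from 1 to 3, with 2 gained (Smug1 and Ahcyl2), both higher in Tet tcKO. Calls over all genes went from 640 to 642 in total. By direction, those higher went from 297 to 427 and those lower from 343 to 215. In Cre- and tHet the Tet3 to Tet2 ratio within a library was 1.34 to 1.88 and 1.27 to 1.35, and in Tet tcKO it was 0.60 to 0.687. Summed markers of cones were 516 to 651 CPM in Cre-, 611 to 686 CPM in tHet and 1074 to 1581 CPM in Tet tcKO, and those of Muller glia 1175 to 1586, 1113 to 1297 and 521 to 846 CPM. The single markers were mixed. Of 8 cone markers, 5 were called higher and 1 lower in Tet tcKO versus each control. Of 4 Muller glia markers, 2 were called lower and the others were not called.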
